A study of Mus musculus with 2 samples.

Results

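The genes described here lie on the distal stretch of mouse chromosome 6, from 72.4 to 148.4 Mb of the mm9 assembly, and were compared between 2 acute promyelocytic leukaemias. The stretch was chosen from the measured ratios of the leukaemias along the gene order, so every ratio below is a description and none was tested. A gene was a member if its locus started in the interval, if the mean of its FPKM (fragments mapped to a transcript, scaled to its length and to the library's total) over both libraries was at least 1, and if its name was not among 10 dropped prefixes and 25 dropped symbols. The rule gave 117 members of 23235 rows in the table. The interval held 714 rows, of which 153 reached the mean of 1, and 36 of these were left out by name or because the row carried several symbols. A further 503 rows passed the name rule but not the level, 259 of them listed at 0 in both libraries.

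The 2 groups were APL#1 and APL#2, primary leukaemias of mice with the PML-RAR fusion, the retinoic acid receptor fusion that blocks promyelocytes from maturing. The labels call the animals both mCG-PML-RAR transgenic and PML-RAR KI, and give an age of 10 weeks and a C57BL/6-Ly5.2 background for both. The treatment entry of both says untreated, while the titles of both libraries carry VEH. Each leukaemia was passed into CD45.1+ hosts that had not been irradiated, with 2000000 cells for APL#1 and 200000 for APL#2, and the CD45.2+ cells were collected from spleen on magnetic columns. Each group was 1 library, each leukaemia came from 1 mouse, and the series describes the pair as clones that differ in how often their cells can start leukaemia anew. With 1 library a group, the leukaemia, the cell dose, the host and the library cannot be told apart. As these are bulk samples, fewer cells of a type and less RNA per cell cannot be told apart either.

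All 6 granulocyte precursor markers were above 1 FPKM in both libraries, and their sum was 765.5 in APL#1 and 218.3 in APL#2. Most of that sum was myeloperoxidase (Mpo), at 661.8 and 157.3, and the part of this difference in the results below was not tested. Elane (32.4 and 5.01), Cd63 (51.8 and 37.2), Prtn3 (3.45 and 2.45) and Cebpe (8.20 and 7.40) were also lower in APL#2 as listed. Ctsg was higher there (7.89 and 8.99). Ptprc, which encodes CD45, was at 4.66 and 4.10. T cell markers, 3 of which lie in the interval itself (Cd4, Cd27 and Lag3), summed to 0.0526 FPKM in APL#1 and 0.315 in APL#2 over 8 genes, all under 1. All 5 B cell, 4 NK cell, 3 erythroid and 4 platelet markers listed were also under 1 in both libraries, with all 4 platelet markers at 0. Of 4 macrophage markers only Cd68 (1.54 and 1.01 FPKM) passed 1, and of 5 stromal and endothelial markers only Pecam1 (3.62 and 1.62). The median ratio of APL#2 to APL#1 over the 4100 measured genes (mean FPKM of at least 1) was 0.835, so a gene at equal FPKM already lay above the middle of the table. Where a difference is called relative, that median has been taken off.

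Distal chromosome 6 is a stretch of position and not of pathway. It mixes housekeeping genes of splicing, chromatin and mitochondria with regulators of blood cells, among them the ETS repressor gene Etv6, the forkhead factor gene Foxp1 and the phosphatase gene Ptpn6, which dampens cytokine and immune receptor signals. It also carries clusters of lectin-like receptor genes of natural killer and myeloid cells, whose names the rule dropped. Neighbouring genes share a chromosome but are mostly regulated each by its own promoter. The table holds RNA levels only and nothing in it measures DNA.

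Promoter bases are shown for 4 members that stood far from the rest and for 1 pair of members that start back to back, to set the promoters of genes with unlike ratios beside one that is shared. They come from RefSeq on GRCm38.p6, a later assembly than that of the table, and CG dinucleotides are in capitals. H2afj and Ptms stood at opposite ends among well-expressed members, and Chchd6 and Alox5 had the largest ratios of all protein-coding members. The first 4 sequences are the 250 bases before the start of transcription, 5′ to 3′ on the gene's own strand, and the last is the 110 bases between the starts of Emg1 (minus strand) and Phb2 (plus strand), written on the plus strand. Positions are chr6:136807998-136808247 on the plus strand for H2afj, chr6:124917947-124918196 on the minus strand for Ptms, chr6:89595653-89595902 on the minus strand for Chchd6, chr6:116461179-116461428 on the minus strand for Alox5, and chr6:124712179-124712288 for the shared stretch.
H2afj: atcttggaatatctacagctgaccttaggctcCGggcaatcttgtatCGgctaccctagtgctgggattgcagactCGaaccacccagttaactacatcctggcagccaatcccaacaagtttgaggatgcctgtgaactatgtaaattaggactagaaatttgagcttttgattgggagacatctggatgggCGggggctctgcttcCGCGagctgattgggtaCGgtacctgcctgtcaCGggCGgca
Ptms: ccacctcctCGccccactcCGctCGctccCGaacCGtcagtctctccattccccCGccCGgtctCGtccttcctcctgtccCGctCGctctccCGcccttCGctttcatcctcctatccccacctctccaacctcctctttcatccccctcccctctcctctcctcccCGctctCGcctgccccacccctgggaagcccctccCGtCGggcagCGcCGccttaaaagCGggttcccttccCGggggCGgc
Chchd6: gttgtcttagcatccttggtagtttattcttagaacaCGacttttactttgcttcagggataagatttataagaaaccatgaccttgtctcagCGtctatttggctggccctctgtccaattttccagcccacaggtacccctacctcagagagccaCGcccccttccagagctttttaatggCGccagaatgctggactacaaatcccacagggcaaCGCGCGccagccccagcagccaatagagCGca
Alox5: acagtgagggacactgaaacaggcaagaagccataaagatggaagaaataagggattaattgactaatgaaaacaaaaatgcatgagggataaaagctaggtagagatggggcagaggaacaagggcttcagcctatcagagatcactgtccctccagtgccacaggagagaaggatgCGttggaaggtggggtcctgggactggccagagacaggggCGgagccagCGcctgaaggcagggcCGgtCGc
Emg1 to Phb2: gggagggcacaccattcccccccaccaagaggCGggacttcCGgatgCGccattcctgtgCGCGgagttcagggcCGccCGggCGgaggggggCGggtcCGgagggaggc
The upstream bases of Ptms held 21 CG dinucleotides, those of H2afj 9, those of Chchd6 8 and those of Alox5 5. Emg1 and Phb2, which share the 10 CG dinucleotides between their starts, had ratios of 1.05 and 1.22. The locus of Emg1 in the table is also that of Lpcat3, so its value is uncertain, and the gap between the pair was not tested.

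Most members stood slightly higher in APL#2, and few stood apart by much. The median ratio of APL#2 to APL#1 over the 117 members was 1.15, with quartiles of 1.01 and 1.40 over genes, which is 1.38 times the ratio of 0.835 for all measured genes. Higher FPKM in APL#2 was listed for 89 members (76.1%), against 28.4% of all measured genes. Above the all-gene median were 105 members (89.7%), against 50% by construction. The direction of 16 members therefore depends on the scaling: they were lower in APL#2 as listed and higher relative to all genes.

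Differences on the log2(FPKM + 1) scale, which understates the difference of low genes, reached 2-fold for few members. On that scale 3 members were at least 2-fold higher in APL#2 (2.56%, against 2.1% of all measured genes) and 1 was at least 2-fold lower (0.855%, against 2.44%). At 1.5-fold, 12 members were higher (10.3%, against 5.49%) and the same single gene, Ptms, was lower (0.855%, against 10.1%). Relative to the all-gene median, 23 members were at least 1.5-fold above it (19.7%, against 8.78%) and 1 was as far below it (0.855%, against 5.34%). The 3 members at 2-fold, Scarna10, Snora7a and Chchd6, were under 1 FPKM in APL#1, so the required mean of 1 fixed their direction. Among the 105 members of at least 1 FPKM in each library, 0 were at least 2-fold higher and 7 at least 1.5-fold higher. The shares over all genes of at least 1 FPKM in each library are not given here. The bulk of the members was shifted by a small amount. The rule used this contrast, so these shares are given with no reading beyond that.

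The FPKM of all members summed to 418.3 (APL#1) and 538.6 (APL#2), 1.29 times as much. Without the small RNA genes Snora7a and Scarna10 the sum in APL#2 was 479.9 and the ratio 1.15, against 1.02 for all measured genes together. Of the 117 members, 105 had at least 1 FPKM in each library, 11 were under 1 in APL#1 and 1, Tada3, was under 1 in APL#2. Those 11, among them Chchd6, Alox5, Gm15401 and both small RNAs, reached the mean of 1 through APL#2 and so had to be higher there.

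**Figure D1:**
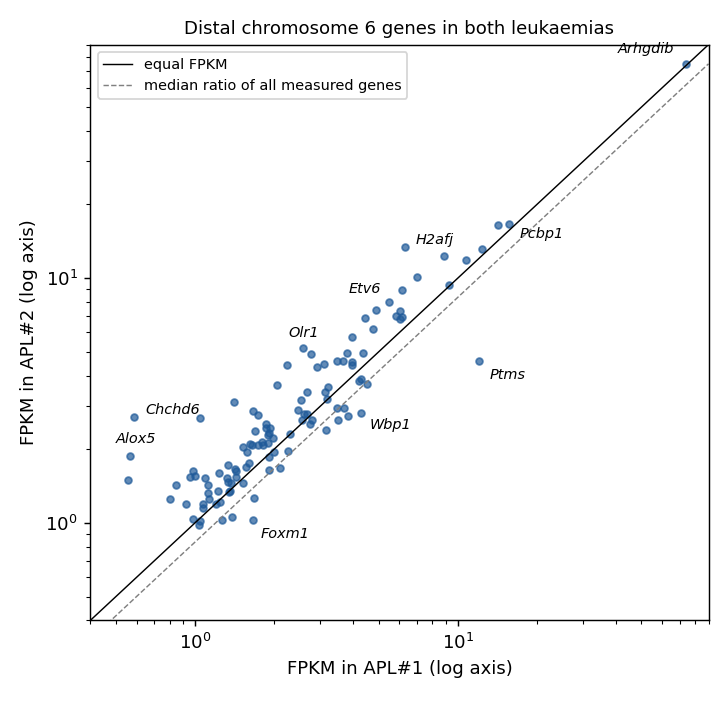
FPKM of each member in APL#1 (horizontal, log axis) against APL#2 (vertical, log axis), 1 point per gene, with lines for equal FPKM and for the median ratio of 0.835 of all measured genes. Most points lie above both lines, Ptms lies far below them, and Snora7a and Scarna10, listed at 0 in APL#1, are not drawn.

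The error of each value could be judged only within these libraries. A transcript of 2 kb at FPKM 1 corresponded to some 103 fragments (APL#1) and 110.0 fragments (APL#2), as estimated from the lowest values of the table, so a ratio there had a counting error of 13.7%, and at FPKM 5 of 6.13%. These figures cover counting error only. The standard error implied by the authors' deposited table (log2 ratio divided by their test statistic) was far wider, with a median of 0.93 on the log2 scale over the 115 members that have one, from 0.47 to 2.55. Measured against it as plain log2 ratios, 21 members lay more than 1 standard error from the all-gene ratio of 0.835. More than 2 were reached by 2 members, H2afj (2.01) and Chchd6 (2.00). In the authors' deposited table no member had a p-value of 0.05 or less. The shares of all measured genes past these limits are not given here, so these counts have no background and are not read as many or few. The smallest p-values of members in the authors' deposited table were those of Chchd6 (0.0735), Alox5 (0.0841), Ptms (0.0874) and H2afj (0.104), and their q-values rounded to 1.00.

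Several of the most abundant members were close to equal in both libraries. Arhgdib, an inhibitor gene of small GTPases abundant in blood cells, was at 74.0 FPKM (APL#1) and 74.9 FPKM (APL#2), with a ratio of 1.01. Pcbp1, which encodes an RNA-binding protein, stood at 15.7 and 16.7, and Hnrnpf, a splicing regulator gene, at 12.3 and 13.2, each with a ratio of 1.07. Rab7, a GTPase gene of late endosomes, stood at 9.28 and 9.39. These 4 genes were nearly equal in both libraries as listed, and all lay above the all-gene ratio.

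A second set of well-expressed members stood near 1.5-fold. Etv6, whose product is a repressor needed by adult blood stem cells and a frequent partner of leukaemia fusions in patients, stood at 5.45 and 7.98 FPKM, a ratio of 1.46. Aup1, a gene of the endoplasmic reticulum degradation pathway, stood at 6.14 and 8.96, also 1.46. Csda, named Ybx3 in RefSeq, a cold-shock domain gene, stood at 6.97 and 10.1, a ratio of 1.44. All of these were higher in APL#2 under both scalings. M6pr, which encodes a mannose-6-phosphate receptor that carries enzymes to lysosomes, stood at 4.90 and 7.40, a ratio of 1.51. Xpc, the damage sensor gene of nucleotide excision repair, stood at 3.97 and 5.76, a ratio of 1.45. Counting error at these levels was far smaller than the gap between the libraries, but the gap was under the error implied by the authors' deposited table for Aup1, Csda, M6pr and Xpc and just over it for Etv6, at 1.04 times.

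**Figure D2:**
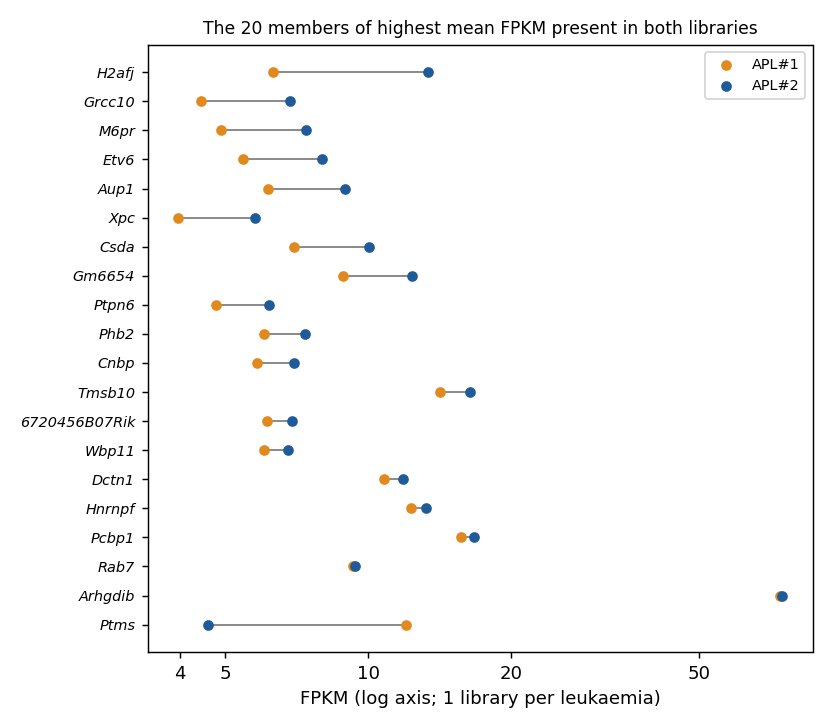
FPKM (log axis) of the 20 members of highest mean FPKM that were above 0 in both libraries, with 1 point per library. H2afj has the widest gap toward APL#2, Ptms is the 1 gene with the gap toward APL#1, and Arhgdib and Rab7 have overlapping points.

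Widest apart toward APL#2 were 2 small RNA genes and Chchd6. Scarna10, a small Cajal body RNA whose gene lies within that of Ncapd2, was listed at 0 in APL#1 and at 44.1 FPKM in APL#2. Snora7a, a small nucleolar RNA that shares its locus in the table with Rpl32 and Cand2, was listed at 0 and 14.6. Neither has a fold, since the table gives no counts behind the 0. Chchd6, a gene of the complex that shapes the inner mitochondrial membrane, stood at 0.588 and 2.70 FPKM, a ratio of 4.59. It was the protein-coding member with the largest difference on the log2 scale, at 1.22.

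H2afj followed. It encodes a variant of histone H2A and stood at 6.30 and 13.4 FPKM, a ratio of 2.12, and reads can be shared with other H2A genes. Alox5, which encodes the lipoxygenase that starts leukotriene synthesis in myeloid cells, stood at 0.567 and 1.87, a ratio of 3.31. Olr1, a receptor gene for oxidised lipoproteins, stood at 2.57 and 5.20, a ratio of 2.02. Of these 3, Alox5 was the one under 1 FPKM in APL#1. Abtb1, a gene of the BTB domain family, stood at 2.24 and 4.43, a ratio of 1.97. Iffo1, an intermediate filament family gene, stood at 2.77 and 4.91, a ratio of 1.77, and Tm7sf3, a membrane protein gene, at 2.04 and 3.65, a ratio of 1.79. Foxp1, a forkhead repressor gene of lymphoid and myeloid development, stood at 1.66 and 2.87, a ratio of 1.72.

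Against these, 12 members lay below the all-gene median. Ptms stood far below it. This gene of parathymosin, a small acidic nuclear protein, was at 12.04 FPKM (APL#1) and 4.59 FPKM (APL#2), a ratio of 0.381 with an implied standard error of 0.81 on the log2 scale. Its neighbours in the interval were nearly equal: Usp5, before it, stood at 2.56 and 2.63, and Mlf2, after it, at 3.18 and 3.20. Next by plain ratio came Foxm1, the transcription factor gene that drives mitotic genes, at 1.67 and 1.03, a ratio of 0.617. Wbp1 followed at 4.27 and 2.82, a ratio of 0.660. The other 9 had ratios from 0.713 to 0.848, against the 0.835 of all genes. The highest of these, Gm8994 at 0.848, was below the all-gene median only on the log2(FPKM + 1) scale.

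Among these 9 were Ncapd2, a condensin subunit gene (3.69 and 2.96 FPKM), Chd4, the helicase gene of the NuRD complex (4.50 and 3.70), and 1190002F15Rik, a long noncoding RNA named Lockd in RefSeq (3.84 and 2.74). The rest were Retsat, Copg, 8430410A17Rik, 5930416I19Rik, Gm8994 and Med21. Gm8994, named Eif4a3l1 in RefSeq, is a close copy of a gene elsewhere, and Med21 shares its locus with Gm6654, so both are uncertain. Gm6654, a transcribed pseudogene, stood at 8.85 and 12.4, against 3.49 and 2.64 for Med21, and the sources used here do not say how reads were divided between them.

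By role, the shift was spread over nearly all kinds of gene. Members were placed in 11 lists of roles, with 3 left in none. In 10 of the 11 lists the median lay above that of all measured genes, and the exception was DNA repair and genome maintenance. With the level lowered to a mean of 0.5, or with no filter, all 11 lists lay above it. The same 10 lists had median ratios above 1 as listed, so the scaling turned none of these medians. The lists hold between 4 and 17 members, and their medians are a description.

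Chromatin and histone genes had 9 members and a median ratio of 1.204, and 8 of the 9 were above the median of all genes. Beside H2afj, the higher ones were Pcgf1, a Polycomb gene (3.78 and 4.95 FPKM), Ino80b, of the INO80 remodeller (3.46 and 4.59), and Ing4, a reader of methylated histones (1.86 and 2.45). Ruvbl1 (1.05 and 1.01) and Tada3, of the SAGA acetylase complex (1.03 and 0.983), were lower as listed and higher relative to all genes. Chd4 was the 1 member of the list on the other side of the all-gene median.

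Transcription factors and other nuclear proteins had 15 members and the median ratio was 1.25, with 12 above the all-gene median. Etv6, Foxp1, Csda and Iffo1 were the widest toward APL#2, and Vgll4, a cofactor of TEAD factors, followed at 1.09 and 1.53 FPKM. Cnbp, a zinc finger gene of nucleic acid binding, stood at 5.83 and 6.99, and Atn1, the atrophin gene, at 2.53 and 3.17. The list also held the widest difference the other way, that of Ptms, so its members ran from 0.381 to 1.77.

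All 14 members of RNA processing and translation lay above the all-gene median, with a median ratio of 1.19. Eefsec, the elongation factor gene for selenocysteine, stood at 2.92 and 4.33 FPKM, a ratio of 1.48, and Ddx47, a helicase gene of ribosome production, at 1.69 and 2.37, a ratio of 1.40. Bms1, also of ribosome production, stood at 0.955 and 1.54, and Dusp11, an RNA phosphatase gene, at 0.845 and 1.43. Lsm3, of the ring that binds U6 RNA, was the only member of this list lower as listed, at 4.30 and 3.86. None of the 14 reached 1.5-fold on the log2(FPKM + 1) scale.

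Mitochondrial and metabolic genes had 17 members, 16 of them above the all-gene median, with a median ratio of 1.15. Apart from Chchd6 and Alox5 the ratios ran from 0.796 for Retsat to 1.57 for Dguok, a mitochondrial nucleoside kinase gene. Phb2, a prohibitin gene, stood at 6.04 and 7.37 FPKM, and the iron-sulphur cluster genes Bola3 (2.68 and 3.42) and Nfu1 (1.87 and 2.54) had ratios of 1.28 and 1.36. The partner subunits of succinyl-CoA ligase lay apart on the stretch: Suclg1 stood at 2.27 and 1.96 and Suclg2 at 3.95 and 4.55. Bid, which carries death signals to mitochondria, stood at 1.81 and 2.08.

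Genes of membrane traffic and the endoplasmic reticulum had 15 members, 13 of them above the all-gene median, with a median ratio of 1.11. After M6pr and Aup1, Gabarapl1, an autophagosome protein gene, stood at 0.981 and 1.63 FPKM and 5730419I09Rik, named C2cd5 in RefSeq, at 1.74 and 2.75. Atg7, the enzyme gene that loads autophagy proteins onto membranes, differed less, at 3.22 and 3.60. Copg, a coat subunit gene of Golgi vesicles, lay below the all-gene median at 3.16 and 2.39, as did Wbp1.

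Signalling genes had 9 members, all above the all-gene median, with a median ratio of 1.11. Ptpn6 stood at 4.77 and 6.19 FPKM, a ratio of 1.299, and Lrmp, a membrane protein gene of lymphoid cells, at 3.09 and 4.48, a ratio of 1.45. The kinase genes Wnk1 (1.12 and 1.43) and Camk1 (1.58 and 1.94) had ratios of 1.28 and 1.23. Arhgap25, which turns off Rac in leucocytes, was nearly equal at 1.25 and 1.22. Camk1, Wnk1 and Lrmp share their locus in the table with another row.

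Receptors and surface molecules had 10 members, all above the all-gene median, with a median ratio of 1.12. Il17ra, a subunit gene of the interleukin receptor of neutrophil defence, stood at 3.66 and 4.61 FPKM and Adipor2, an adiponectin receptor gene, at 1.98 and 2.23. Tnfrsf1a (2.74 and 2.54) and Ltbr (1.27 and 1.03), receptors of the tumour necrosis factor family that are near neighbours on the stretch, were lower as listed, with plain ratios of 0.925 and 0.810. The place of Ltbr depends on the pseudocount: its plain ratio is under 0.835, and its log2(FPKM + 1) difference is above the all-gene median.

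Cytoskeletal genes had 4 members within a narrow range of ratios, from 1.10 to 1.197. Tmsb10, the thymosin gene that holds actin monomers, stood at 14.2 and 16.4 FPKM, Dctn1, the large dynactin subunit gene, at 10.8 and 11.9, and 6720456B07Rik, named Brk1 in RefSeq and part of the WAVE complex, at 6.12 and 6.91. Protein folding and turnover had 8 members, all above the all-gene median, with a median ratio of 1.14. Cct7, a chaperonin subunit gene, stood at 4.35 and 4.95, Cops7a, of the COP9 signalosome, at 1.00 and 1.55, and Fkbp4, an Hsp90 co-chaperone gene, at 4.196 and 3.81. Fkbp4 was lower as listed and higher relative to all genes.

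DNA repair and genome maintenance had a median ratio of 0.802 at a mean of at least 1, and 2 of 5 members over the median of all genes. Xpc and Pole4, a polymerase subunit gene (1.34 and 1.48 FPKM), were the higher ones. Ncapd2, 8430410A17Rik (Hmces in RefSeq, a shield of abasic sites in DNA, 1.67 and 1.26) and 5930416I19Rik (Rhno1 in RefSeq, a checkpoint gene, 1.39 and 1.06) were the lower ones. 5930416I19Rik lies beside Foxm1 on the stretch, and both were lower in APL#2 under both scalings. Repair genes of the interval under the level included Ogg1 (0.744 and 0.907), Rad18 (0.574 and 0.631) and Rad52 (0.696 and 0.832), which were higher in APL#2, and Fancd2 and Rad51ap1, which were lower. Whether this list of 5 differs from the others was not tested.

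**Figure D3:**
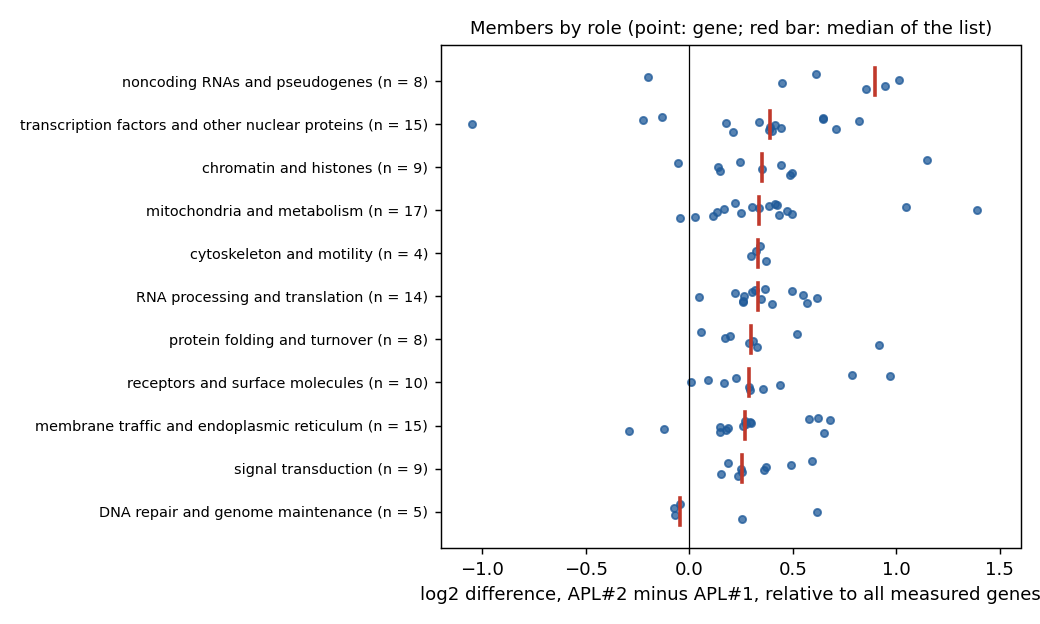
Difference of each member between APL#2 and APL#1 (log2(FPKM + 1), relative to the median of all measured genes) in 11 lists of roles, with a point per gene and a red bar at the median of each list. The medians of 10 lists lie to the right of 0, and Snora7a and Scarna10 lie beyond the axis and are not drawn.

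Noncoding RNAs and pseudogenes had 8 members and the widest values. Beside the small RNAs, Gm15401 (0.555 and 1.49 FPKM), Npm3-ps1 (1.41 and 3.12) and 2310001H17Rik (1.05 and 2.67) had ratios of 2.69, 2.21 and 2.55. Npm3-ps1 is a pseudogene, whose reads can be shared with its parent gene, and the locus of Gm15401 is also that of Tcf7l1. All 3 were under 1.5 FPKM in APL#1. Lockd was the 1 member of the list below the all-gene median.

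The differences along the chromosome are a description, since the bounds of the interval were set from these same ratios. In windows of 10 Mb counted from the start, the median ratio was 1.01 over the first 4 members, 1.11 over the next 38, 1.15 over 3 and 1.12 for 1 gene. It was 1.15 over 25 members, 1.17 over 29, 1.17 over 10 and 1.40 over the last 7. All 8 window medians lay above that of all measured genes. The window of 3 and that of 1 lie in a part with few measured genes, where the starts of Foxp1 and Arl8b are 9.86 Mb apart. The last window, from 5730419I09Rik to Far2, ran from 0.756 to 1.79 in its genes, and it has too few genes for its height to be read.

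At the start the members were mixed. Retsat, a retinol saturase gene and the first member, stood at 2.10 and 1.67 FPKM, a ratio of 0.796, and Suclg1, the fourth, had a ratio of 0.865. Between them lay Gm15401 and Tmsb10, with ratios of 2.69 and 1.16. After Suclg1 no member started for 9.40 Mb, and the next, Pole4, had a ratio of 1.10. So the place where the shift begins cannot be read more finely than this gap. The last measured genes before the interval were Usp39, 0610030E20Rik, Rnf181, Vamp8 and Mat2a, with ratios of 0.692, 1.39, 0.846, 0.943 and 0.863. At the other end the last members were Fgfr1op2, Tm7sf3, Gm6654, Med21 and Far2, with 1.197, 1.79, 1.40, 0.756 and 1.06. No measured gene of chromosome 6 started after the end of the interval. The locus of Far2 in the table also covers Ergic2 and Tmtc1, and 18 members in all share their listed locus with another row, so a start is that of the locus and not always that of the gene.

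**Figure D4:**
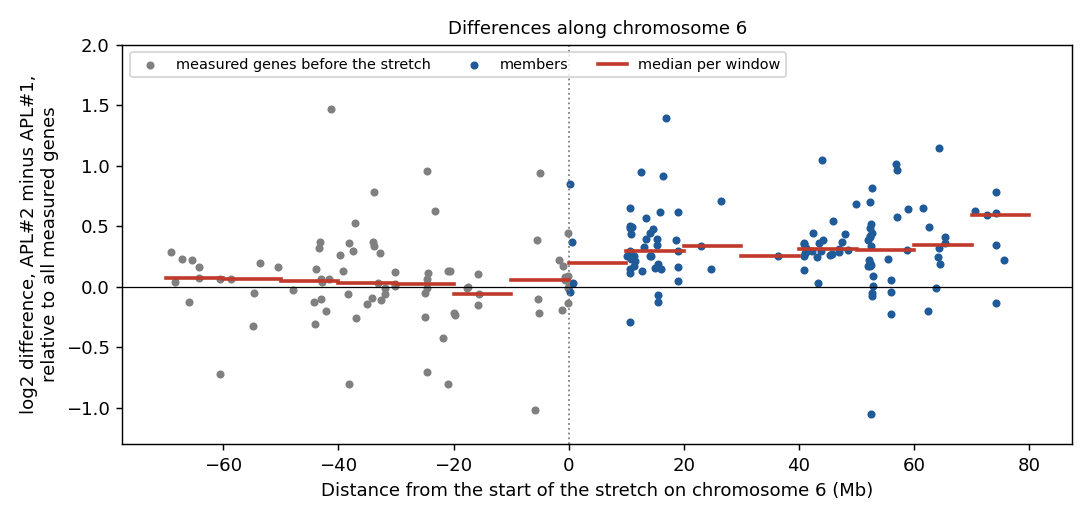
Difference of each measured gene of chromosome 6 between APL#2 and APL#1 (log2(FPKM + 1), relative to the median of all measured genes) by distance in Mb from the start of the stretch, with red bars at the medians of windows of 10 Mb. Grey points before the start scatter about 0 and blue members lie mostly above it, with Snora7a and Scarna10 beyond the axis.

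Compared with other parts of the genome, the distal members lay between the bulk and chromosome 19. Relative to all measured genes, the median log2 difference was 0.32 over the 117 members, with an interquartile range over genes of 0.18 to 0.50. On the rest of chromosome 6, with 81 genes, it was 0.04 (-0.11 to 0.20) and -0.02 over 3741 genes elsewhere (-0.20 to 0.17). The genes elsewhere include these 81. Chromosome 19 and a stretch of chromosome 2 had themselves been picked out from these ratios. Chromosome 19 stood at 0.60 over 134 genes (0.43 to 0.84) and the chromosome 2 stretch at -0.60 over 72 genes (-0.78 to -0.40). The quartiles of the distal members did not overlap those of the chromosome 2 stretch, and overlapped in part those of chromosome 19 and of the rest of chromosome 6. These differences between regions were not tested. As plain ratios the medians were 1.15, 0.872, 0.820, 1.63 and 0.432 in that order. The 36 measured rows of the interval left out by the name rule had a median ratio of 1.06.

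**Figure D5:**
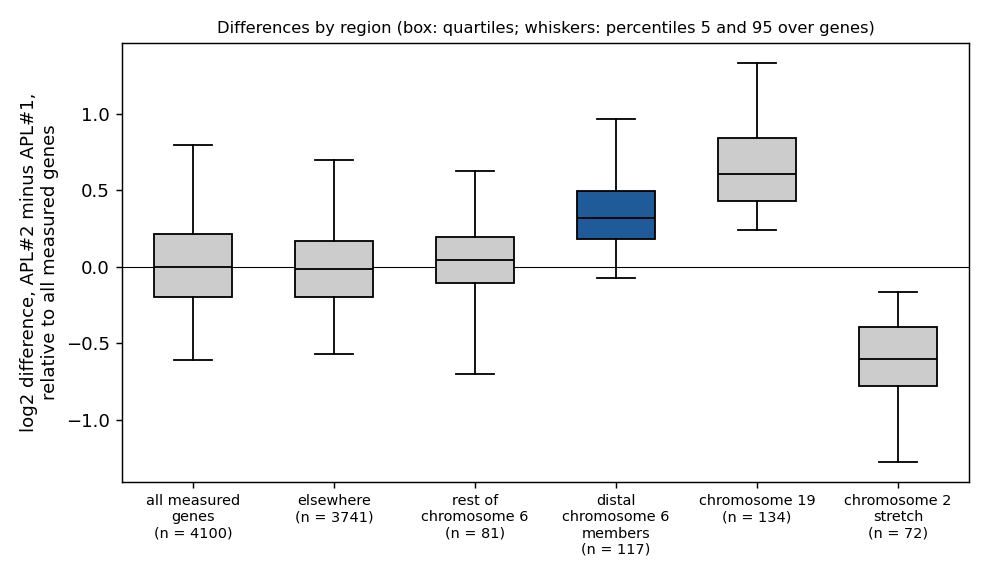
Difference between APL#2 and APL#1 (log2(FPKM + 1), relative to the median of all measured genes) by region, with boxes for quartiles over genes, a line for the median and whiskers at percentiles 5 and 95. The 117 distal chromosome 6 members (blue) are centred on 0.32, between the rest of chromosome 6 at 0.04 and chromosome 19 at 0.60. The box marked elsewhere includes the genes of the rest of chromosome 6.

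The members stood above all genes of like level at low and at high FPKM. The members had a median mean FPKM of 2.20 and ran from 1.01 to 74.4, close to the median of 2.04 over all measured genes. In the 39 members of lowest mean FPKM (1.01 to 1.76) the median ratio was 1.11, in the middle 39 (1.78 to 3.29) it was 1.15 and in the highest 39 (3.33 to 74.4) it was 1.22. All measured genes in the same ranges stood at 0.832, 0.815 and 0.857. The gap was narrowest for the members of lowest level and widest for those of highest level.

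Rows of the interval just under the level gave like values. Of the rows that passed the name rule with a mean of 0.5 to 1, 66 in number, 53 were higher in APL#2 as listed. Of all 2564 genes of that level, 751 were higher as listed. The median ratio was 1.23 over the 66 rows and 0.844 over all genes of that level. Just under the mean of 1 lay Dok1 (0.863 and 1.13 FPKM), Rad51ap1 (1.12 and 0.872), 2700089E24Rik, Lpcat3 and Kcmf1, and just over it Zfml (0.980 and 1.03), Tada3, Gm15401, Dguok (0.802 and 1.26) and Ruvbl1. Several cancer genes of the interval lay under the level, named here for their role and not by rule. The ubiquitin ligase gene Vhl stood at 0.312 and 0.474, the DNA demethylase gene Tet3 at 0.466 and 0.715, and the repair gene Fancd2 at 0.646 and 0.449. Of these 3 only Fancd2 was lower in APL#2.

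The CG content of promoters was a property the rule did not use. RefSeq promoters of 300 bases (250 before and 50 after the start) were matched for 96 of the 117 members, or 82.1%. CG was searched on 1 strand, which is enough since it reads the same on both. At least 10 CG dinucleotides were found in 83.3% of these, against 43.9% of all 27025 genes in the promoter table. Among the 3259 measured genes with a match the share was 86.6%, slightly above that of the members. Only 79.5% of measured genes could be matched, under the 80% set for such a check, so the check is void and nothing is drawn from these shares. The 80 members with 10 or more had a median ratio of 1.13 (quartiles 1.00 and 1.301), and the 16 with fewer had 1.19 (1.01 and 1.48), among them Alox5, Olr1, Arhgdib, Ptpn6 and Hnrnpf. The ratios of both kinds overlapped over most of their range. Consecutive members, small RNAs left out, differed in log2 ratio by a median of 0.34 over 114 pairs, and by 0.30 over the 15 pairs whose starts lay within 20 kb.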

How the data were processed

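RNA of 2 leukaemias was measured, with 1 library each. The deposited data are a single gene table. TopHat2 2.0.10, Cufflinks, Cuffdiff and the mm9 build are listed, without their roles, per the submitters' processing notes. Its header names no unit for the library values: they were taken as the authors' FPKM, from the Cuffdiff column layout. The deposited table also gives the authors' test statistic, here a score, with p-values and q-values, as its file headers say. The sources used here give no annotation, strand or scaling. FPKM summed to 34893.9 in APL#1 and 35239.9 in APL#2.

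Differences were log2((APL#2 + 1)/(APL#1 + 1)), and ratios are plain FPKM ratios. With 1 library a group no test was run. Relative depth came from 3168 low genes, 305 of which shared a ratio of 1.08 within 0.1%, and fragments per FPKM from genes of 1 transcript (120 in APL#1, 162 in APL#2) within a window around 1 fragment that was set from the data. The members, role lists and comparisons were chosen with earlier results of these data known. Of the members, 87 were in the lists as first written and 27 were added after their values were seen. The rule for naming took the 15 highest and 15 lowest members by difference, the 12 of highest mean, in each list the 4 of highest mean and both extremes, the 5 on each side of each bound, and the 5 of smallest q, taken by p since q was tied. Any other member was named after its values were seen. Alternatives were other pseudocounts, levels, centrings and member sets. Python 3.11.15 with pandas 2.3.3 was used, and the scripts were tested on simulated data. Values of some genes are not reported here.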

Additional observations from a re-analysis of the deposited data

How the results depend on the processing

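The share of members above the all-gene median stayed between 87.6% and 95.2% under every alternative run, and the median difference kept its sign. Centring on all measured genes or on genes outside the stretches could not move that share, which is counted against the all-gene median. Both take off a negative median, so they could only raise the median difference. The interval was chosen on these ratios, so this is a description. All windows with 5 Mb windows or with a mean of at least 5 kept medians above that of all genes. Counts past a fold depended on the choice. The shares of all measured genes past these folds also change with the setting. They are given only for the main setting and for the centring on all measured genes, where 8.78% were at least 1.5-fold above the all-gene median. The other counts below have no background and are not read as many or few. At least 2-fold higher members numbered 3, and 8 with a pseudocount of 0.1, 6 with 0.5, 6 with each of the 3 centrings, 10 with all measured rows of the interval, 0 among members of implied standard error at most the median, 1 without Snora7a and Scarna10 and 0 among members of at least 1 FPKM in each library. At least 1.5-fold higher members numbered 12, and 21 with a pseudocount of 0.1, 3 with a mean of at least 5, 23 when centred on all measured genes, 25 when centred on genes outside the stretches, 23 when centred on genes of like level, 20 with all rows, 5 with low implied error and 7 with at least 1 FPKM in each library. With all rows, 2 were 2-fold lower and 3 were 1.5-fold lower, and with a pseudocount of 0.1, 2 were 1.5-fold lower. The median log2 difference was 0.15, and 0.25 with a mean of at least 5, 0.0752 with no filter on level, and 0.32, 0.34 and 0.34 with the centrings on all measured genes, on genes outside the stretches and on genes of like level. Fewer or more genes enter under the filters, and the centrings take off a constant or a level-dependent median; the cause of other shifts was not tested. Leaving out the small RNAs, centring on genes of like level and asking for 1 FPKM in each library were chosen after the data were seen. No paired analysis was possible because each leukaemia is 1 library. With no replicates, leaving out a library leaves no comparison.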
